A study of Mus musculus with 23 samples.

Results

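The Hox cluster genes encode homeodomain transcription factors and lie in 4 clusters, HoxA to HoxD. They were taken here as all genes whose symbol is Hox followed by a cluster letter and a paralog number, with a summed estimated count of at least 20 over 23 libraries. Of 39 such genes 30 met the minimum, out of 32793 genes in the table. HoxA contributed all 11 of its genes, HoxB 9 of 10, HoxC all 9 and HoxD 1 of 9. Just inside the minimum were Hoxd11, with a summed count of 27, and Hoxb2, with 86. Just outside were Hoxd10 with 9, Hoxd9 with 3, Hoxd12 with 2 and Hoxb1 with 1, and the other 5 HoxD genes were at 0 in every library.

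Hox proteins bind DNA through the homeodomain, often together with partners of the MEIS and PKNOX families, and tell cells where they lie along the body axis. Within a cluster, genes with low paralog numbers are expressed toward the head and genes with high numbers toward the tail and, in limbs, toward the digits. Cells taken from adult tissue often keep much of the Hox pattern of the site they came from, and C2C12 descends from thigh muscle of an adult mouse.

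C2C12 is a mouse myoblast line that divides in rich serum and, once serum is withdrawn, forms multinucleate myotubes. Control C2C12 cells (labelled WT) and C2C12 cells labelled Runx1KO (here KO) were sampled at day 0, in growth medium with 20% fetal bovine serum, and on days 1, 3 and 6 of culture in medium with 2% horse serum. Each of the 8 groups held 3 libraries of poly(A) RNA, except WT at day 0 with 2. The sources used here do not say how Runx1 was disrupted, whether either line is 1 clone, or whether replicates were separate cultures, so p-values measure the spread between these libraries, which may be technical.

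Total estimated counts were 22197606 to 23684077 per library, so depth differed little. Runx1 mRNA was not lower in the KO-labelled libraries: its mean was 119.8 CPM (counts scaled to a common library size and composition) against 84.0 in WT at day 0, and 311 against 153 on day 6. The label KO is therefore used below only as the name of those libraries. All 6 myoblast markers checked were detected, with summed TPM (a level scaled for transcript length and depth) of 1161 to 2271 per library. The summed level of 6 myotube markers rose from 2.26 to 3.50 at day 0 to 1889 to 2333 in WT and 11178 to 13086 in the KO-labelled libraries on day 6. Summed markers of fibroblasts (Thy1, Pdgfra, Dpt, Lum, Pi16 and Col15a1) were at or below 12.5 TPM, with Thy1 at 0 in every library, and those of blood cells at or below 17.3, with Ptprc at or below 0.01. The 5 neural markers summed to 23.9 to 150.4 TPM, nearly all from Tubb3 (22.8 to 150 TPM), while Sox10 and Elavl4 were at 0 in every library before day 6 and in WT on day 6. Replicate 2 of the day 1 group labelled KO stood apart from its replicates, and the day 1 calls between the lines and against day 0 that changed when it was left out are given below.

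C2C12 cells of both lines held a posterior HoxC and HoxA pattern, with little HoxB and almost no HoxD. By mean TPM over the 23 libraries Hoxc10 led with 76.0, followed by Hoxc11 with 53.1, Hoxc9 with 26.9, Hoxc6 with 21.2, Hoxa10 with 20.8, Hoxa11 with 20.6, Hoxa9 with 17.8 and Hoxa7 with 16.8. Next came Hoxc13 with 12.3, Hoxb9 with 10.6 and Hoxc4 with 10.3. The remaining members were at or below 3.10 TPM. Hoxa10, Hoxc10, Hoxa11 and Hoxc11 belong to paralog groups that are known for patterning the limb and the lumbar and sacral axis. Genes of paralog groups 9 to 13 held 73.3% to 81.1% of the summed Hox TPM in each library.

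**Figure D1:**
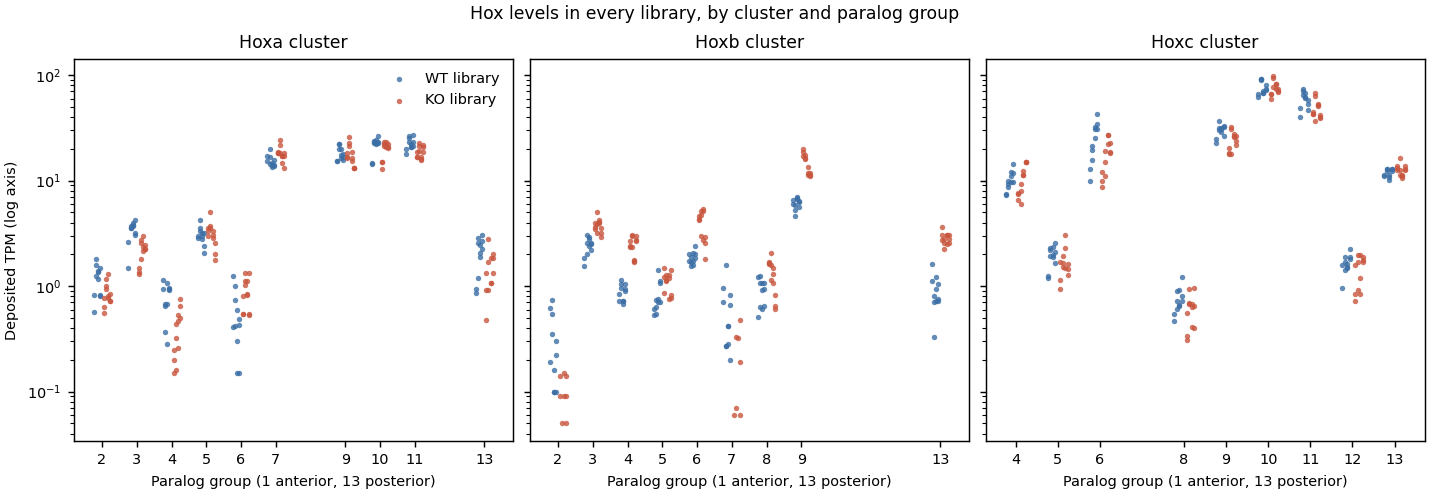
TPM of HoxA, HoxB and HoxC genes by paralog group, on a log axis that leaves out values of 0, with 1 point per library (WT blue, labelled KO red). Genes of groups 9 to 11 in HoxC and HoxA are among the highest, led by Hoxc10.

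The summed TPM of all Hox genes ran from 249.1 to 376 per library. HoxC made up the largest part, 161 to 244 TPM in WT libraries and 154 to 242 in those labelled KO. HoxA held 73.7 to 105.7 TPM in WT and 75 to 106.9 in KO-labelled libraries. Over all days together these ranges overlapped between the lines. Within days the HoxA sums were apart and lower in the KO-labelled libraries on day 3 (90.2 to 92.0 TPM in WT, 81.2 to 83.1 TPM labelled KO) and on day 6 (88.5 to 100.7 against 79.8 to 82.4 TPM). The HoxC sums were apart in the same direction on day 6 (215 to 242 TPM in WT, 186 to 189 TPM labelled KO). TPM is not scaled for library composition, and of these differences only that of HoxA on day 6 was also apart in summed CPM (108.6 to 115.2 in WT, 100.6 to 104.7 labelled KO). In summed CPM HoxA was apart and higher in the KO-labelled libraries at day 0 (99.4 to 102 against 103.4 to 108.3), as was HoxC on day 3 (170.3 to 186 against 191 to 203). HoxB sums did not overlap even over all days: HoxB summed to 13.2 to 15.9 TPM in the 11 WT libraries and to 24.3 to 37.3 TPM in the 12 labelled KO. A large part of these sums was Hoxb9. At day 0 Hoxb9 averaged 6.26 of 14.6 TPM for HoxB in WT and 18.5 of 35.15 TPM in KO-labelled libraries. In summed CPM HoxB was at 17.6 to 20.9 in WT and 34.4 to 55.9 in KO-labelled libraries. In TPM it was 3.64% to 5.70% of summed Hox TPM in WT and 8.0% to 13.2% in KO-labelled libraries. In bulk RNA, more cells expressing a gene and more RNA per cell cannot be told apart.

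**Figure D2:**
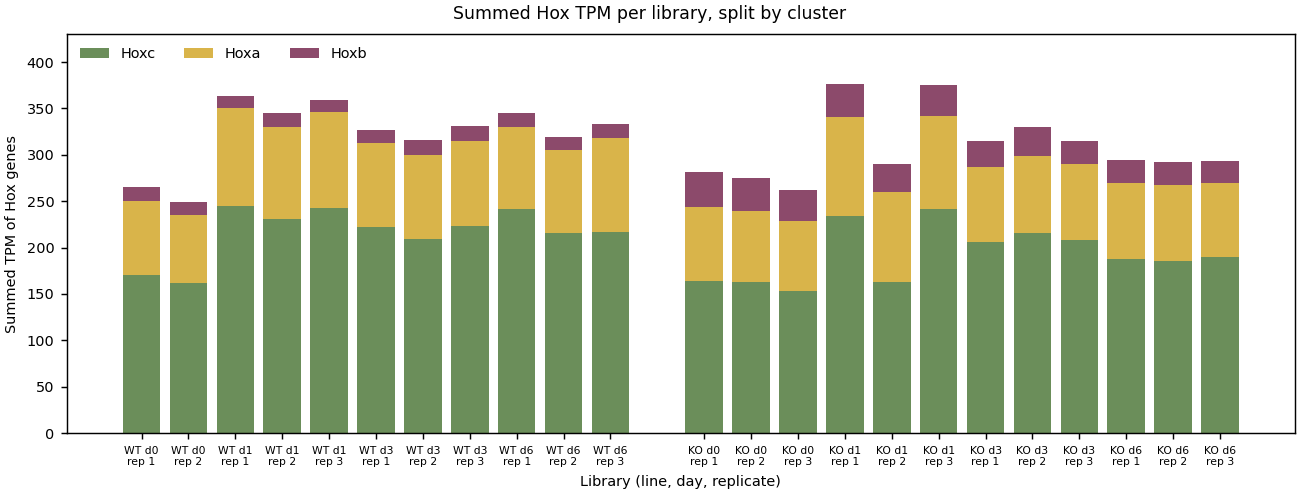
Summed TPM of HoxC, HoxA and HoxB genes, stacked in 1 bar per library and ordered by line and day. The HoxB sums, the top segments, of the KO-labelled libraries are all larger than in WT (24.3 or more against 15.9 or less), while the HoxA and HoxC sums overlap over all days together, with HoxA lower in the KO-labelled libraries on days 3 and 6 and HoxC on day 6 on this scale.

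HoxD was close to silent in both lines. Hoxd11, its sole member and a posterior gene that patterns the forearm and digits, had 0 counts in all 5 libraries of day 0 and at most 5 in any library. It failed the filter on low counts, as did Hoxa6, which had 1 to 9 counts per library. The other 28 members were tested. Long noncoding RNAs of the clusters were mostly near 0 too, apart from Hotair and Hoxa11os, which are described below.

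The lines were compared at each day with edgeR's quasi-likelihood test, fitted over 14187 genes, and a difference was called at a Benjamini-Hochberg adjusted p under 0.05. At day 0, 8 of 28 members were called, where 17.5% of all tested genes were: 6 were higher in the KO-labelled libraries (7.36% of all genes) and 2 lower (10.1%). On day 1, 10 were called against 42.2% of all genes, 7 higher (22.9%) and 3 lower (19.2%). The day 1 split was 5 higher and 8 lower without KO replicate 1, and 5 and 5 without WT replicate 2. More were higher than lower with any other day 1 library left out. The day 3 count was 9 against 43.2%, 6 higher (24%) and 3 lower (19.2%). That of day 6 was also 9, against 42.9%, 6 higher (22%) and 3 lower (20.8%). The share of members called was thus 28.6%, 35.7%, 32.1% and 32.1%, above the background at day 0 and below it on the later days. This comparison was not matched for level. With a mean count of at least 50, 3, 7, 7 and 8 of 17 tested members were called on the 4 days. The share of all genes under that filter is not given here. Without scaling for composition the split was 7 higher and 5 lower on day 1 and 5 higher and 4 lower on day 6. The day 6 split was 3 higher and 4 lower on the log2(TPM + 0.1) scale, and 4 and 5 without WT replicate 3. In every other run more were higher than lower on day 6. The median log2 difference over the 28 members was 0.04, -0.05, 0.06 and -0.19 on the 4 days, beside -0.00, 0.03, 0.04 and 0.00 over all genes.

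Hoxb2 and Hoxb7 reached 10 counts in WT libraries alone and so passed the filter only through the line in which they were high; their lower calls, Hoxb7 at day 0 and Hoxb2 on day 1, are part of the counts above but support nothing. Of the other 7 HoxB members, 6 were called at day 0, 6 on day 1, 5 on day 3 and 4 on day 6, all of them higher in the KO-labelled libraries. HoxA had 1, 3, 3 and 3 of 10 members called, of which 1, 2, 3 and 2 were lower. The HoxA count was 1 to 3 on day 3 and 1 to 2 on day 6 with any 1 library of that day left out. HoxC had 0, 0, 1 and 2 of 9 called. The difference between clusters was not itself tested. At day 0 1 HoxC member and on day 1 none had an unadjusted p under 0.05, and DESeq2 called none on either day. Without WT day 0 replicate 2 the HoxB count at day 0 was 4 of these 7, with Hoxb13 (adjusted p = 0.0820) and Hoxb5 (0.139) no longer called. On day 1 it was 5 or 6 when any 1 library was left out. Without replicate 2 of the day 1 group labelled KO, Hoxa3 (adjusted p = 0.0773) and Hoxb5 (0.0501) were no longer called on day 1, and Hoxb8 (0.0240) was. The day 1 HoxC count depended on the KO-labelled libraries: without replicate 1 it was 3 (Hoxc4, Hoxc6 and Hoxc11, all lower, adjusted p = 0.0316 to 0.0453), without replicate 2 it was 1 (Hoxc13, higher, 0.0468) and without replicate 3 it was 1 (Hoxc11, lower, 0.0387). On day 6 the HoxC count was 1 without WT replicate 2 and 3 without WT replicate 3.

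**Figure D3:**
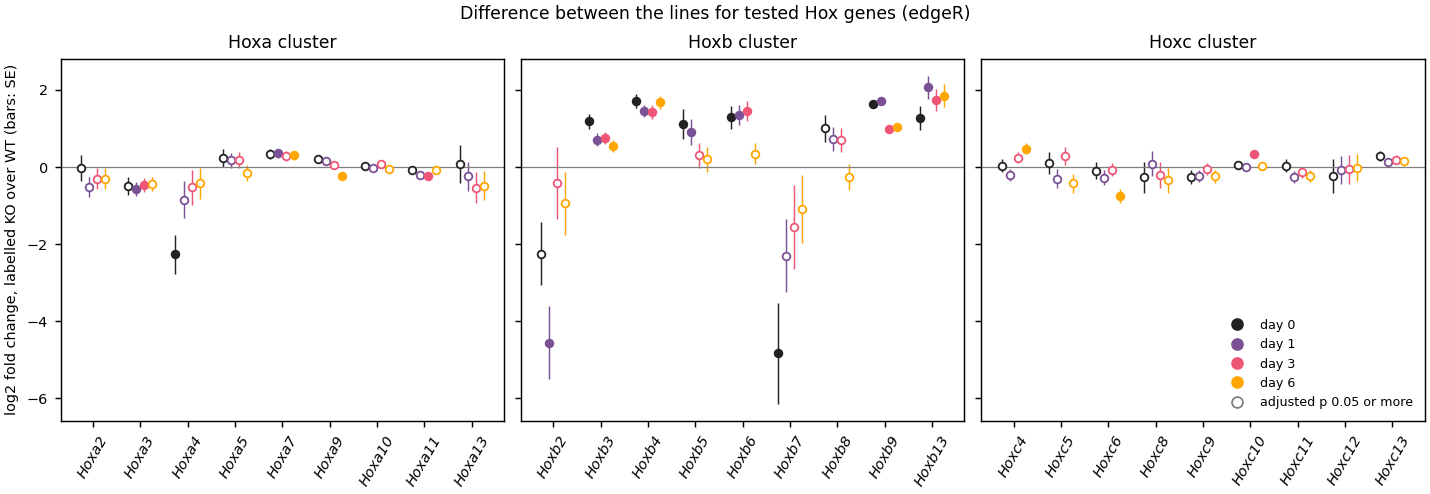
Log2 difference of KO-labelled from WT libraries for tested members on each of the 4 days, with standard errors, in order along each cluster. Filled points have an adjusted p under 0.05. Most HoxB values lie above 0 on every day, and HoxA and HoxC values mostly lie near 0.

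Averaged over the 4 days, 16 of 28 members were called, where 58.9% of all genes were: 9 were higher (31.9% of all genes) and 7 lower (27.1%). The 7 HoxB members other than Hoxb2 and Hoxb7 were all called higher, and Hoxb2 and Hoxb7, subject to the filter as above, lower. HoxA had 5 of 10 called, 1 higher and 4 lower, and HoxC 2 of 9, 1 higher and 1 lower. With 1 library left out the HoxC count was 2 to 6, the 6 without replicate 2 of the day 1 group labelled KO (Hoxc4, Hoxc9, Hoxc10 and Hoxc11 gained) and 4 without replicate 1 or 3 of that group. When library composition was not scaled the split of the 19 calls was 9 higher and 10 lower, and on the log2(TPM + 1) scale it was 8 higher and 10 lower. Across the 4 days, 4 members were higher in the KO-labelled libraries on all 4 days (Hoxb3, Hoxb4, Hoxb9 and Hoxb13, all HoxB), none was lower on all 4, and 11 were called on no day. These are 14.3%, 0% and 39.3% of the 28 members, beside 3.31%, 5.54% and 30.7% of all tested genes.

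Hoxb9 was the HoxB gene with the highest TPM. It is a posterior HoxB gene that acts with Hoxa9 and Hoxc9 in the thoracic skeleton, and it lies 74.7 kb from Hoxb13 and 2.8 kb from Hoxb8 (HoxB spans chr11:96194316-96368254, build GRCm38). At day 0 it stood at 10.4 and 10.1 CPM in WT and at 33.9, 32.3 and 29.1 CPM in the KO-labelled libraries. On day 1 it was 7.69, 8.61 and 7.18 against 28.2, 23.5 and 24.8 CPM, and on day 3 it was 9.75, 9.79 and 10.4 against 18.8, 21.5 and 18.9 CPM. The values on day 6 were 9.28, 8.87 and 8.47 against 18, 18.5 and 18.1 CPM. The groups overlapped on no day. The log2 difference was 1.63 ± 0.11 (SE; edgeR adjusted p = 8.475e-11) at day 0, a 3.10-fold difference, then 1.70, 0.98 and 1.03.

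The paralogs of Hoxb9 did not show such a gap. The homeobox is the conserved part of the Hox genes, and paralogs share many bases there. The homeobox sequences of Hoxb9 and Hoxc9 are printed in the coding direction, from GENCODE transcripts of GRCm38, with capitals at the 29 of 180 bases where they differ.
Hoxb9 homeobox: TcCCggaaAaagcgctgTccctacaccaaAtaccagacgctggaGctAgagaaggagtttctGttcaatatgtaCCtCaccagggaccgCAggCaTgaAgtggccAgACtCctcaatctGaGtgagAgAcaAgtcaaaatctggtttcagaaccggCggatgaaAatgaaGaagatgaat
Hoxc9 homeobox: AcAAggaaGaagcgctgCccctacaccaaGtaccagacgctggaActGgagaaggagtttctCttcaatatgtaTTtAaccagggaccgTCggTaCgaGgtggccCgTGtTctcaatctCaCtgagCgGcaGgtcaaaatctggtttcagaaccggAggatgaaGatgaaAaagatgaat
They lie in coding exons at chr11:96274659-96274838 and chr15:102983930-102984109, both on the plus strand. Hoxb9 shares 83.9% of these bases with Hoxc9, and the longest identical run is 24 bases. At day 0, when Hoxb9 was 3.10-fold higher, Hoxa9 had a log2 difference of 0.22 and Hoxc9 one of -0.24, neither of them called. Over all pairs of expressed paralogs in one group the median homeobox identity was 81.7% (23 pairs), against 61.7% for pairs within a cluster (127 pairs). Identical runs reached 33 bases within a paralog group, 47 within a cluster and 52 between other pairs, and how the counting assigned reads from such runs was not tested.

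Hoxb4, a central HoxB gene known for its role in blood stem cell expansion and hindbrain patterning, was low but steady in its difference. At day 0 it was at 1.28 and 1.16 CPM in WT and at 3.81, 3.87 and 4.31 CPM in the KO-labelled libraries. On day 1 the values were 1.32, 1.48 and 1.67 against 3.61, 4.27 and 4.34 CPM, and on day 3 they were 1.00, 0.997 and 0.954 against 2.63, 2.59 and 2.78 CPM. On day 6 they were 1.25, 1.37 and 1.30 against 3.88, 4.04 and 4.66 CPM, so that every library labelled KO exceeded every WT library. The log2 differences were 1.71 ± 0.19 (SE; edgeR adjusted p = 5.584e-07), 1.45, 1.43 and 1.68.

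Hoxb3, an anterior HoxB gene of hindbrain and pharyngeal patterning, was higher in the KO-labelled libraries by a smaller margin. At day 0 it was at 3.74 and 3.24 CPM in WT and at 7.67, 7.56 and 8.57 CPM in KO-labelled libraries. On day 1 it was 4.67, 5.77 and 3.89 against 10.2, 5.95 and 7.43 CPM, and on day 3 it was 5.18, 5.33 and 4.43 against 8.60, 8.13 and 8.39 CPM. The values on day 6 were 4.60, 4.44 and 4.28 against 6.79, 5.89 and 6.75 CPM. The groups did not overlap, though on day 1 the lowest KO-labelled value, 5.95 CPM in replicate 2, was close to the highest WT value of 5.77. The log2 differences were 1.18 ± 0.19 (SE; edgeR adjusted p = 8.888e-05), 0.71, 0.75 and 0.55. Hoxb3 shares 2250 exonic bases with the antisense gene Hoxb3os in GENCODE, and use of strand in the counting is not given in the sources used here, so its reads and those of Hoxb3os may not be told apart.

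Hoxb13, the most posterior HoxB gene, known from the prostate and the tail end of the embryo, had the largest day 1 to day 6 differences among members higher on all 4 days. At day 0 it was at 1.14 and 0.833 CPM in WT and at 2.72, 2.38 and 2.09 CPM in the KO-labelled libraries. The day 1 values were 0.212, 0.467 and 0.555 against 1.85, 1.47 and 1.92 CPM, and those of day 3 were 0.610, 0.780 and 0.477 against 1.81, 2.19 and 2.24 CPM. At the last time point they were 0.688, 0.532 and 0.419 against 1.72, 2.19 and 2.05 CPM. The groups did not overlap, with 5 to 26 counts per WT library and 35 to 60 per KO library. The log2 differences were 1.27, 2.07 ± 0.30 (SE; edgeR adjusted p = 8.93e-06), 1.73 and 1.85. Without WT day 0 replicate 2 the day 0 difference was 1.06, adjusted p = 0.0820.

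Hoxb6, a central HoxB gene of the trunk and limb buds, was called on 3 days. Its values at day 0 were 1.23 and 1.53 CPM in WT and 3.27, 3.59 and 3.24 CPM in the KO-labelled libraries. On day 1 they were 1.10, 1.27 and 1.07 against 3.38, 1.97 and 3.54 CPM, and on day 3 they were 1.04, 1.13 and 1.34 against 3.71, 3.84 and 2.02 CPM. By day 6 they were 1.33, 1.29 and 1.43 against 1.99, 1.29 and 1.87 CPM, and the groups overlapped. The log2 differences were 1.29, 1.36, 1.44 ± 0.26 (SE; edgeR adjusted p = 8.839e-05) and, not called, 0.35. Without WT day 0 replicate 1 the day 0 difference was 1.16, adjusted p = 0.0624.

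**Figure D4:**
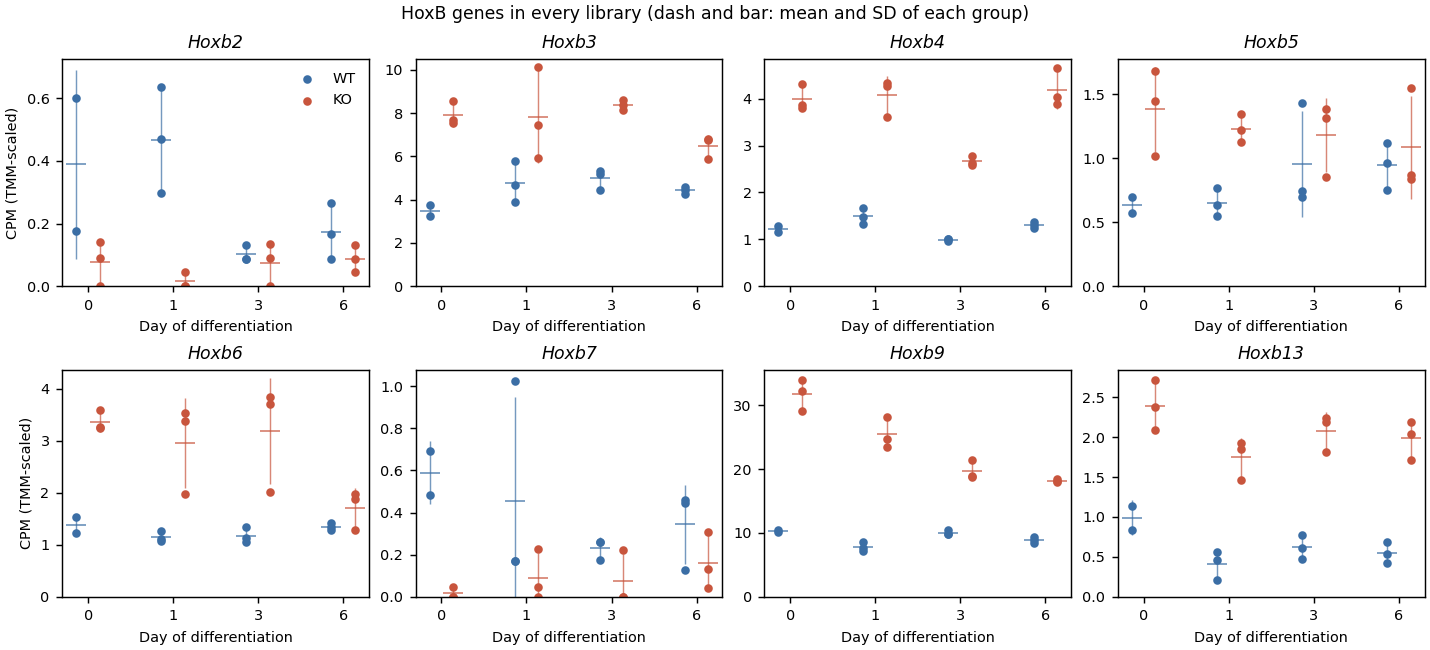
CPM of 8 HoxB genes in every library, by day, with the mean and SD of each group. Hoxb9, Hoxb4, Hoxb3 and Hoxb13 are higher in the KO-labelled libraries on all 4 days, Hoxb6 approaches WT on day 6, and Hoxb2 and Hoxb7 lie near 0 in the KO-labelled libraries.

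Hoxb5 and Hoxb8, central genes of the lower neck and trunk, were less steady. Hoxb5 had log2 differences of 1.12 (edgeR adjusted p = 0.0463) at day 0 and 0.91 (0.0327) on day 1, and of 0.31 and 0.20 without a call later. Its day 0 call was lost when either WT replicate or KO replicate 1 or 2 was left out (adjusted p = 0.0994 to 0.283), and its day 1 call when any of 5 of the 6 libraries was (0.0501 to 0.115). Hoxb8 was called only in the average over the 4 days, at 0.54, with daily values of 1.00, 0.73, 0.70 and -0.26. At day 0, where WT held 43 and 18 counts, the Hoxb8 difference was 1.74 and called without WT replicate 1 (adjusted p = 0.0198) and 0.54 without WT replicate 2 (0.487). On day 1 it was called without KO replicate 2 (0.92, adjusted p = 0.0240) or WT replicate 1 (0.0492).

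Hoxb2 and Hoxb7 went the other way from their neighbours, at very low counts. Hoxb7, a central trunk gene, had 11 and 15 counts in WT at day 0 and 0, 0 and 1 in the KO-labelled libraries. The ratio of WT to KO counts, scaled for library size, was 38.1 with an exact 95% interval of 6.27 to 1564, which covers counting error only. On days 1, 3 and 6 it was smaller, at 5.17 (2.13 to 15.1), 3.09 (1.08 to 10.8) and 2.16 (1.02 to 4.88). The intervals use summed counts of each group and leave out the spread between libraries. On each of those days the groups overlapped and Hoxb7 was not called. WT libraries held 4 to 24, 4 to 6 and 3 to 11 counts, against 0 to 5, 0 to 5 and 1 to 7. Hoxb2, an anterior hindbrain gene, had 7, 15 and 11 counts in WT on day 1 and 1, 0 and 0 in KO-labelled libraries, a ratio of 32.0 (5.36 to 1302). For Hoxb2 the ratio was 4.99 (1.77 to 17.3) at day 0, 1.35 (0.370 to 5.41) on day 3 and 1.98 (0.687 to 6.42) on day 6. Since both genes passed the filter only through WT, these values are a description and no call is drawn from them. Hoxb2 shares 953 exonic bases with Hoxb3os.

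Myotube markers moved with the line as well: 5, 6 and 6 of 6 were called higher in the KO-labelled libraries on days 1, 3 and 6. At day 0, where the HoxB sums were 14.1 to 15.1 TPM in WT and 33.1 to 37.3 TPM in KO-labelled libraries, the summed myotube markers were 2.26 to 2.36 and 3.35 to 3.50 TPM. Fibroblast markers moved with the line in the other direction, with 1, 2, 3 and 1 of the 3 tested called lower in the KO-labelled libraries on the 4 days. Their sums did not overlap between the lines, at 3.62 to 4.05 TPM in WT against 1.55 to 2.33 at day 0 and 10.96 to 12 against 4 to 5.06 on day 1. Other marker sums were also apart on some days: myoblast markers were higher in the KO-labelled libraries at day 0 (1161 to 1173 TPM in WT, 1523 to 1587 labelled KO), on day 3 (1541 to 1659 against 1909 to 2118) and on day 6 (1361 to 1633 against 2104 to 2271). Blood markers, nearly all Cd68, were lower at day 0 (2.85 to 2.86 against 1.85 to 2.70) and higher on day 6 (4.22 to 7.88 against 15.4 to 17.3). Epithelial markers, at or below 2.18 TPM in every library, were higher on day 1 (0.13 to 0.33 against 1.74 to 2.18) and on day 6 (0 to 0.08 against 0.23 to 2.07), with 1 and 2 of the 2 tested called higher on those days. Endothelial markers, at or below 0.65 TPM in every library, were lower at day 0 (0.17 to 0.20 against 0.04 to 0.13), and the 1 tested was called on no day. Neural markers, nearly all Tubb3, were higher on day 1 (83.4 to 95.1 against 119.5 to 150.4) and lower at day 0 (142 to 147 against 122.5 to 138) and on day 6 (45.4 to 53.2 against 23.9 to 27.4). The part of these marker lists in the Hox differences was not tested.

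HoxA differences were mostly small, with a median size of 0.18, 0.30, 0.29 and 0.30 (log2) on the 4 days. Hoxa4, at low counts, differed by more. Hoxa3, which patterns the pharyngeal arches, was lower on days 1 and 3, by 0.57 and 0.46 on the log2 scale. In the 4-day average Hoxa3 was called lower, by 0.40 to 0.57 with any 1 library left out. The day 1 call of Hoxa3 was lost without replicate 2 of the KO group (adjusted p = 0.0773), and its day 3 call without KO replicate 1 or 3 or any WT replicate (0.0516 to 0.16). Hoxa4 was lower at day 0, with 18 and 22 counts in WT against 3, 5 and 4, and a scaled ratio of 4.89 (2.52 to 10.2). Its 4-day average was called lower, by 0.89 to 1.11 (log2) with any 1 library left out.

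Hoxa7, Hoxa9 and Hoxa11 differed by less. Hoxa7 was higher in the KO-labelled libraries by 0.35 on day 1 and 0.30 on day 6 (log2), and the average over the 4 days was 0.32. The day 1 call was lost without KO replicate 1 (adjusted p = 0.136) or WT replicate 2 (0.0924), and the day 6 call without KO replicate 2 or 3 or any WT replicate (0.0592 to 0.202). Hoxa9 was lower on day 6 by 0.23, a call lost without any KO replicate or WT replicate 1 or 2 (0.0544 to 0.11). Hoxa11 was lower on day 3 by 0.24, a call lost without KO replicate 1 or 3 or WT replicate 1 or 3 (0.0601 to 0.119). In the 4-day average Hoxa11 was called lower, by 0.14 to 0.18 with any 1 library left out.

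Of the 3 leading HoxA genes, Hoxa10, a thigh-level limb and lumbar gene, was at 19.0 and 20.2 CPM in WT and at 20.7, 21.3 and 17.9 CPM in KO-labelled libraries at day 0. It was at 27.8, 28.9 and 29.2 against 30.5, 26.5 and 27.5 CPM on day 1 and at 26.7, 29.0 and 28.1 against 27.8, 28.6 and 31.6 CPM on day 3. By day 6 the values were 28.8, 29.5 and 28.9 against 28.6, 27.5 and 28.7 CPM. The lines overlapped except on day 6, where the WT libraries lay just above, and no day was called.

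Hoxa11, which patterns the forearm and lower leg, was at 26.9 and 25.4 CPM in WT and at 26.4, 24.4 and 24.2 CPM in KO-labelled libraries at day 0. After 1 day the values were 32.5, 28.7 and 32.6 against 30.4, 23.5 and 27.6 CPM, and those of day 3 were 27.3, 24.9 and 25.6 against 21.6, 22.5 and 21.6 CPM. The day 6 values were 26.0, 30.2 and 29.9 against 27.4, 28 and 25.7 CPM. The lines were apart on day 3 only. Hoxa11 shares 800 exonic bases with its antisense gene Hoxa11os.

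Hoxa9, a posterior gene also known from leukemia, was at 28.8 and 30.2 CPM in WT and at 36.3, 33.6 and 32.9 CPM in KO-labelled libraries at day 0. Day 1 gave 38.5, 39.2 and 36.2 against 43.3, 44.3 and 38.7 CPM, and those of day 3 were 30.3, 27.9 and 34.5 against 30.8, 34.6 and 30.1 CPM. Day 6 gave 30.7, 29.2 and 26.1 against 23.2, 24.9 and 25.1 CPM. The KO-labelled libraries lay above WT at day 0 and below WT on day 6.

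HoxC was the cluster with the highest levels. Hoxc10, a hindlimb and lumbar gene, was at 68.7 and 77.2 CPM in WT and at 76.6, 79.6 and 70.4 CPM in KO-labelled libraries at day 0. The day 1 values were 91.0, 94.2 and 95.8 against 103, 77.2 and 103 CPM, and those of day 3 were 68.1, 67.4 and 71.7 against 80.8, 89.5 and 93.3 CPM. At the last time point they were 82.3, 79.1 and 65.5 against 70.8, 78.8 and 82.7 CPM. Only on day 3 did the groups stand apart, with a log2 difference of 0.35 ± 0.10 (SE; edgeR adjusted p = 0.00794) that was not called on either TPM scale. Hoxc10 shares 166 exonic bases with Hoxc5.

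Hoxc11, a neighbouring gene of the lumbosacral region and hindlimb, was at 22.2 and 19.4 CPM in WT and at 20.3, 22.4 and 21.3 CPM in KO-labelled libraries at day 0. After 1 day the values were 29.4, 27.7 and 31.9 against 29.5, 15.2 and 29.8 CPM, and those of day 3 were 28.2, 25.6 and 25.4 against 24.2, 23.7 and 24 CPM. By day 6 the values were 22.2, 20.8 and 21.7 against 17.3, 19.3 and 18.3 CPM. The groups did not overlap on days 3 and 6, with KO-labelled libraries lower, but no day was called. The value of 15.2 CPM belongs to replicate 2, which stood apart.

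Hoxc9, which acts at the thoracic to lumbar transition, was at 23.9 and 23.2 CPM in WT and at 20.8, 18.8 and 19.3 CPM in KO-labelled libraries at day 0. Day 1 gave 32.8, 27.3 and 29.6 against 30.0, 16.0 and 30.5 CPM, and those of day 3 were 27.2, 25.7 and 28.5 against 25.1, 25.9 and 27.6 CPM. The day 6 values were 28.8, 31.6 and 21.3 against 21.5, 21.5 and 26.3 CPM. The groups did not overlap at day 0, again replicate 2 gave the low day 1 value, and no day was called. The summed HoxC TPM of that library was 163, against 234 and 242 in its replicates.

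At the anterior end of HoxC the lines differed on day 6 in opposite directions. Hoxc6, a trunk and forelimb gene, was at 34.1, 29.5 and 21.8 CPM in WT and at 18.6, 15.9 and 16.6 CPM in KO-labelled libraries, a log2 difference of -0.74 ± 0.18 (SE; edgeR adjusted p = 0.00201). Hoxc4 was at 19.0, 13.6 and 13.8 against 20.2, 21.9 and 22.3 CPM, a difference of 0.47 ± 0.14 (SE; edgeR adjusted p = 0.00996). The Hoxc4 call was lost without WT replicate 2 (adjusted p = 0.0559) or WT replicate 3 (0.0729). Hoxc5, Hoxc8, Hoxc12 and Hoxc13 were called on no day, with Hoxc13 called in the 4-day average at 0.19.

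The second question was how stable the pattern was during differentiation. The range of the day means, on the log2 CPM scale, had a median of 0.53 in WT and 0.73 in KO-labelled libraries over the 28 members, beside 0.68 and 0.75 over all tested genes. In each line 5 of 28 members (17.9%) ranged over more than 1 log2 unit, beside 32.7% of all genes in WT and 36.0% in KO-labelled libraries. These were Hoxa13, Hoxb2, Hoxb7, Hoxb13 and Hoxc6 in WT and Hoxa4, Hoxb7, Hoxb8, Hoxc4 and Hoxc6 in KO-labelled libraries. Apart from Hoxc4 and Hoxc6 their mean levels were at or below 1.92 TPM. Hoxb2 and Hoxb7 carry the limit of the filter given above. For 8 members the mean difference between the lines was larger than the range over days in either line: Hoxa7, Hoxb3, Hoxb4, Hoxb5, Hoxb6, Hoxb9, Hoxb13 and, with the limit of the filter given above, Hoxb7. That is 28.6% of the 28 members, beside 6.28% of all tested genes.

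Against day 0 of the same line, 12 members were called in WT on day 1, where 54.7% of all genes were: 10 were higher (27.1% of all genes) and 2 lower (27.6%). On day 3, 6 were called against 58.2% of all genes, 5 higher (29.2%) and 1 lower (29%). For day 6 the count was 7 against 63.6%, 5 higher (32.6%) and 2 lower (31.1%). In the KO-labelled libraries 5 were called on day 1 against 52.3% of all genes, 4 higher (27.2%) and 1 lower (25.2%). The day 3 count was 10 against 57.6%, with 6 higher (30.4%) and 4 lower (27.2%). The day 6 count was 11 against 70% of all genes, with 5 higher (36.6%) and 6 lower (33.5%). In all 6 comparisons the share of members called was below that of all genes, but members were not matched to all genes by level. With a mean count of at least 50, 17 members were tested. Of these, 10, 6 and 5 were called in WT on days 1, 3 and 6, and 5, 11 and 8 in KO-labelled libraries. The share of all genes under that filter is not given here. WT day 0 has 2 libraries: without replicate 2 the WT counts were 5, 2 and 4, and without replicate 1 the day 1 and day 6 counts were 7 and 4. In the day 1 group labelled KO the count was 3 without replicate 1 and 10 without replicate 2. The 5 calls gained without replicate 2 were all higher than at day 0: Hoxa11 by 0.22, Hoxa13 by 1.19, Hoxc6 by 0.62, Hoxc9 by 0.63 and Hoxc11 by 0.48, with adjusted p of at most 0.0262. On the log2(TPM + 0.1) scale the median log2 change of all genes was 0.18 in WT on day 3 and 0.20 in WT on day 6, each 0.15 to 0.16 above its value with composition scaling. The splits of called members on that scale were 9 higher and 0 lower for WT on day 3, 10 and 0 for WT on day 6, 10 and 0 for KO on day 1 and 8 and 6 for KO on day 6.

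Over time 16 members were called in WT and 16 in the KO-labelled libraries, 9 in both and 5 in neither. Of all tested genes 73.7% were called in WT, 81.3% in the KO-labelled libraries, 67.4% in both and 12.4% in neither. The 5 members called in neither were Hoxa7, Hoxb5, Hoxb7, Hoxc8 and Hoxc12. Hoxa10 and Hoxa3 were higher than at day 0 at all 3 later days in both lines. Hoxa10 rose by 0.49 to 0.57 on the log2 scale and Hoxa3 by 0.60 to 0.78. For Hoxa3 in WT all 3 calls were lost without day 0 replicate 2 (adjusted p = 0.157 to 0.344), and in the KO-labelled libraries the day 1 call was lost without day 1 replicate 1 (0.0665).

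Hoxc6 had the steepest rise among the abundant members. In WT it was at 11.3 and 9.12 CPM at day 0, 15.5, 12.7 and 17.6 on day 1, 24.6, 19.8 and 25.8 on day 3 and 34.1, 29.5 and 21.8 on day 6. In the KO-labelled libraries it was at 11.1, 9.48 and 8.02 CPM at day 0, 16.6, 8.71 and 12.5 on day 1, 23.9, 23.5 and 19.8 on day 3 and 18.6, 15.9 and 16.6 on day 6. The WT log2 changes were 0.58, 1.20 and 1.48 ± 0.22 (SE; edgeR adjusted p = 2.883e-06). The WT day 1 call was lost without day 0 replicate 2 (adjusted p = 0.22) or day 1 replicate 3 (0.103). In the KO-labelled libraries the changes were 0.40 (not called), 1.23 and 0.84. Without the outlying replicate 2 of day 1 the Hoxc6 change on that day was 0.62 and called (adjusted p = 0.00673), as it was without KO day 0 replicate 1 (0.0468). Hoxc4, next to Hoxc5 at the anterior end of the cluster, rose by 0.52 in WT on day 6 and by 0.60 and 0.95 in KO-labelled libraries on days 3 and 6; the WT call was lost without day 0 replicate 2 (adjusted p = 0.051).

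**Figure D5:**
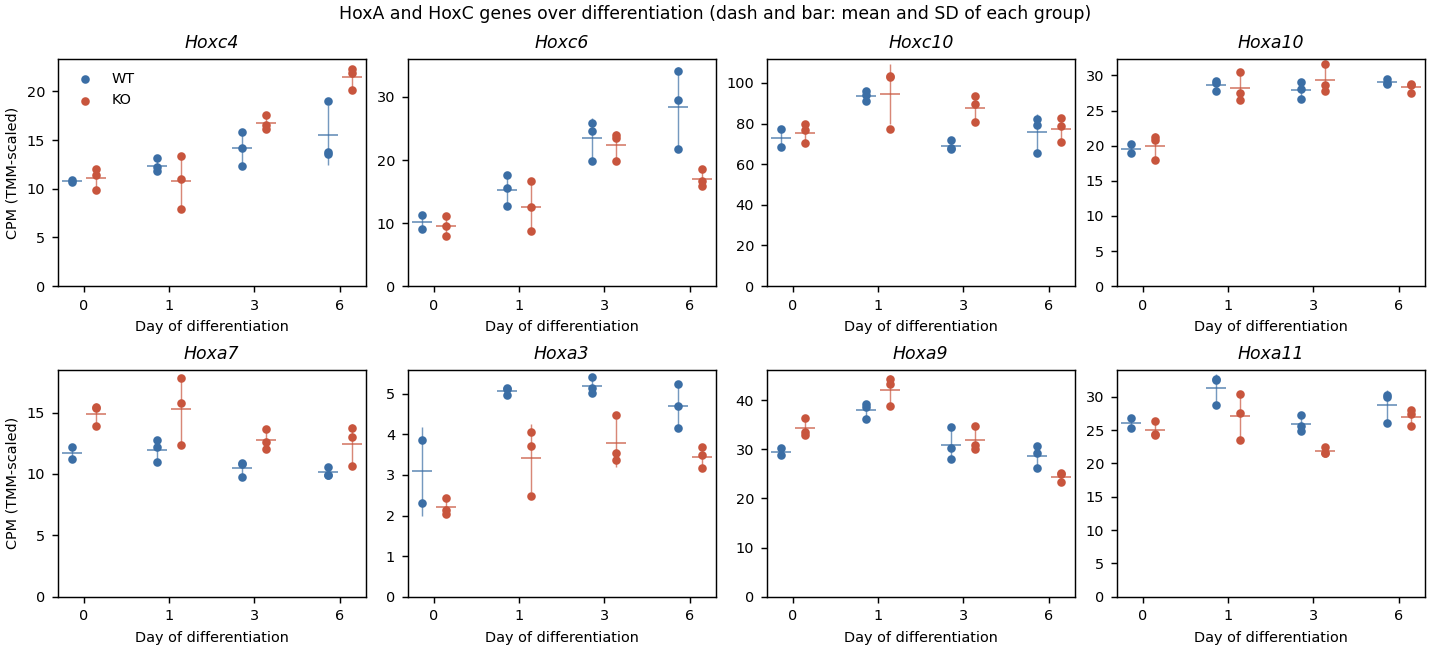
CPM of 8 HoxA and HoxC genes in every library by day of differentiation, with the mean and SD of each group. Hoxc6 climbs in both lines to day 3 and is lower in the KO-labelled libraries on day 6, and Hoxa10 stands higher after day 0 in both lines.

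Some members fell. Hoxb9 fell by 0.32, 0.69 and 0.81 ± 0.09 (SE; edgeR adjusted p = 2.761e-08) in KO-labelled libraries and by 0.39 on day 1 in WT, where the call was lost without day 0 replicate 1 (adjusted p = 0.0693). Hoxb8 fell by 1.37 and Hoxb6 by 0.97 in KO-labelled libraries on day 6. Hoxa9 rose on day 1 in both lines, by 0.36 and 0.30, and was lower than at day 0 by 0.49 in KO-labelled libraries on day 6.

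The change over time was compared between the lines with an interaction term. No member was called on day 1, where 3.95% of all genes were (2.64% positive, 1.31% negative), and by an unadjusted p under 0.05 and by DESeq2 the count was 0 too. On day 3 1 member was called, where 10.7% of all genes were (6.65% positive, 4.06% negative). On day 6 2 members were called, where 13% of all genes were (7.54% positive, 5.42% negative), and all 3 member calls were negative. Hoxb9 was the day 3 call, with a log2 interaction of -0.65 ± 0.14 (SE; edgeR adjusted p = 0.00341). On day 6 Hoxb9 had -0.60 ± 0.14 (SE; edgeR adjusted p = 0.00553) and Hoxa9 -0.45 ± 0.13 (SE; edgeR adjusted p = 0.0248). The Hoxa9 interaction was lost without WT day 0 replicate 1 (adjusted p = 0.0838) or 2 (0.0623).

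Noncoding RNAs of the clusters were few: 4 of the 14 listed were testable, and 1 was called lower in the KO-labelled libraries on day 1 and 2 on day 6, when 19.2% and 20.8% of all genes were. Hotair, an RNA from between Hoxc11 and Hoxc12, rose in WT from 1.89 CPM at day 0 to 5.28 on day 6, and stood at 3.42 CPM in KO-labelled libraries on day 6, a log2 difference between the lines of -0.62. Hoxa11os, antisense to Hoxa11, was lower in KO-labelled libraries by 0.39 on day 1 and 0.30 on day 6. Hottip, which lies beside Hoxa13, was at or below 0.075 CPM in every group mean.

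Among the 9 genes for Hox partners 1, 2, 3 and 1 were higher and 1, 2, 2 and 2 lower on days 0, 1, 3 and 6, so that 2, 4, 5 and 3 were called beside 17.5%, 42.2%, 43.2% and 42.9% of all genes. Pknox2, a TALE homeodomain relative of MEIS, was higher in the KO-labelled libraries on all 4 days, at 49.2 against 14.5 CPM at day 0 and with log2 differences of 1.77, 1.22, 1.85 and 1.66. Meis1 was lower on days 1, 3 and 6 by 0.24, 0.37 and 0.37.

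Of 26 genes known to regulate Hox clusters 22 were tested, with 7, 4 and 1 called higher on days 1, 3 and 6 and 3, 7, 6 and 6 called lower on the 4 days. The totals of 3, 14, 10 and 7 of 22 stand beside the same shares of all genes, 17.5%, 42.2%, 43.2% and 42.9%. Ezh1 (an H3K27 methyltransferase of Polycomb complex PRC2), Cbx7 (a reader of that mark) and Rarg (a retinoic acid receptor) were lower on all 4 days, by 0.34 to 0.83, 0.46 to 0.87 and 0.40 to 0.56. Eed, another PRC2 subunit, was higher on days 1, 3 and 6 by 0.60, 0.51 and 0.34. The genes flanking the clusters had 4, 3 and 1 of 9 called higher on days 1, 3 and 6 and 1 called lower on day 1. Cbx1, near the HoxB cluster, had log2 differences of 0.09, 0.33, 0.21 and 0.07, of which those of days 1 and 3 were called.

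Promoters were available for 13 of the 30 members (15 promoters, RefSeq, GRCm38.p6, from 250 bases before to 50 after the start). The RUNX core TGTGGT, searched on both strands, was found in 0 of 15 member promoters and in 16.8% of 32851 promoters. CG dinucleotides had a median of 14 in the member promoters and 7 in all promoters. Of the HoxB members, Hoxb4 and Hoxb8 were in that set.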

How the data were processed

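Poly(A) RNA-seq of 23 libraries in 8 groups was analysed from a pair of tables that hold 32793 genes by symbol. Per the submitters' processing notes, Bowtie2, RSEM and mm10 were used; versions, annotation and strand setting are not given in the sources used here. The authors deposited an expected count (an estimated count) per gene, as whole numbers. They also deposited TPM, scaled for transcript length and depth. Sample titles give the last time point as day 6, the series text as day 5; the titles were followed. Equal replicate numbers did not pair libraries (mean correlation of deviations 0.049, 0.003, 0.017 and -0.094 on the 4 days).

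Counts were rounded, which changed no value, filtered with filterByExpr (minimum count 10, total 15; 14187 genes left, 12326 at 0 everywhere) and fitted with edgeR 4.0.16 (R 4.3.3): TMM scaling, one group-means model over all libraries, 14 contrasts, Benjamini-Hochberg over all tested genes in each contrast, threshold 0.05. CPM is the count divided by the TMM-scaled library size. Differences are KO minus WT, or later day minus day 0, on the log2 scale, and standard errors derive from the F statistic. The procedure was tested on simulated data. Alternatives were DESeq2 1.42.0; limma 3.58.1 on TPM after adding 1 or 0.1 and taking log2; RLE or library-size scaling; dropping the filter or raising it to a mean of 50 counts; an adjusted p under 0.01; a replicate block; models of the compared groups alone; and omission of each library.

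The members and gene lists were chosen with earlier results of these data known. Values in every library are given for the 3 members of each cluster with the highest mean TPM and for those called the same way on all 4 days; others are described by range or call. In GENCODE annotation of GRCm38 13 of 30 members share exonic bases with another gene, 8 of them on the opposite strand, so their counts are uncertain. Homeobox positions came from GENCODE coding sequences. Results for some genes are not reported here.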

Additional observations from a re-analysis of the deposited data

Results flagged for a closer look

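In 3 cases the change over time differed between the lines by an interaction term in edgeR. For Hoxb9 the value was -0.65 on day 3 and -0.60 on day 6 (log2), with the mean of KO-labelled libraries falling from 31.8 CPM at day 0 to 19.8 and 18.2 while WT means were 10.3, 9.99 and 8.87. For Hoxa9 it was -0.45 on day 6, with means of 34.3 and 24.4 CPM in KO-labelled libraries and of 29.5 and 28.7 CPM in WT. Their direction was the same with any 1 library left out.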

How the results depend on the processing

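Of 106 called member results, 1730 of 1902 alternative values kept direction and call, 172 kept direction without the call and none reversed. Of 286 uncalled results 190 of 4944 alternative values passed the threshold. In the line comparisons Hoxb3, Hoxb4, Hoxb9 and Hoxb13 had the same direction under every alternative run.

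Counts of called members moved by over 1.5 times as follows, and the cause was not tested unless fewer genes, samples or a stricter threshold made it. With library size only, WT day 3 gave 10 and KO day 1 gave 8. With log2(TPM + 1), WT day 3 gave 10, WT day 6 gave 11 and KO day 1 gave 9, and with log2(TPM + 0.1) KO day 1 gave 10. With only the groups compared, WT day 3 gave 11, KO day 1 gave 2 and the day 6 interaction 4; this setting does not apply to the 4-day average, which uses all groups. With a mean count of at least 50, fewer members were tested. KO vs WT then gave 3 of 17 at day 0 and 10 of 17 in the average, beside 8 and 16 of 28 in the main runs. With an adjusted p under 0.01, WT days 1, 3 and 6 gave 6, 3 and 2, KO day 1 gave 3 and the day 6 interaction 1.

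With 1 library left out, KO vs WT gave 6 to 8 at day 0, 10 to 13 on day 1, 7 to 9 on day 3, 6 to 9 on day 6 and 16 to 20 in the average. WT days 1, 3 and 6 against day 0 gave 5 to 11, 2 to 6 and 4 to 7, and the KO-labelled ones 3 to 10, 8 to 10 and 11 to 13. The interactions gave 0, 1 to 2 and 1 to 4; the 2 came without WT day 3 replicate 1, the lower day 6 count of 1 without WT day 0 replicate 2 and the 4 without WT day 6 replicate 3. Equal replicate numbers did not mark paired libraries. With the replicate block the KO vs WT counts were 8, 10, 8 and 8 on days 0, 1, 3 and 6 and 17 in the average, the WT time counts 12, 5 and 8, the KO ones 5, 10 and 11 and the interactions 0, 1 and 2, all within 1.5 times the counts without it.

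Depth limits Hoxb2, Hoxb7, Hoxa4, Hoxa6 and Hoxd11, which had few counts per library.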

Other observations

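Of 20 other positional transcription factors listed, 12 were tested, and 2, 3, 4 and 3 were called higher and 1, 2, 2 and 3 lower in the KO-labelled libraries on days 0, 1, 3 and 6, so that 3, 5, 6 and 6 were called where 17.5%, 42.2%, 43.2% and 42.9% of all genes were. Tbx4, a T-box gene of the hindlimb, was at 0.427 CPM in WT and 1.58 CPM in KO-labelled libraries at day 0, with log2 differences of 1.87, 2.57, 2.40 and 2.13 on the 4 days. Lbx1, a homeobox gene of migrating limb muscle precursors, was at 0.930 against 2.83 CPM at day 0, with log2 differences of 1.60, 1.93, 2.45 and 2.17. Shox2, a homeobox gene of the proximal limb, was lower by 0.24, 0.21, 0.37 and 0.52 on the log2 scale. For these 3 genes the groups did not overlap on any day.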
